A study of Homo sapiens with 2 samples.

Results

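The genes that encode CTCF and cohesin, the proteins that fold interphase chromosomes into loops and domains, are themselves placed within that folding, and the Hi-C map of HEK293T cells was read at 8 of them. The members were chosen by name and position, not by any measured value: CTCF, SMC3, RAD21, STAG1, NIPBL, WAPL, PDS5A and PDS5B, each with 500 kb either side. Their 8 windows are 1.03 to 1.41 Mb long and add up to 9.16 Mb, or 0.318% of the 2883 Mb that carried a compartment score. Gene positions are hg19 and given to 10 kb, so a distance to a gene is good to about that. Their lengths differed by at most 8.4 kb from the RefSeq lengths of the same genes.

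HEK293T cells are a transformed human embryonic kidney line that expresses the large T antigen of SV40. In situ Hi-C crosslinks chromatin, here with formaldehyde, cuts it, here with MboI, joins ends that lie close together and sequences the junctions. The only group was HEK293T with no treatment beyond the crosslinking, in 2 libraries, numbered replicates 1 and 2. The titles of both libraries read HEK293, without the T. The deposited tables give 1 value for both libraries. There is thus no spread between replicates behind any value, no difference could be tested, and nothing here compares CTCF or cohesin activity between conditions.

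Cohesin is a ring built of SMC1A, SMC3 and RAD21, with STAG1 or STAG2 bound to it. In the loop extrusion model the ring, helped by NIPBL, reels in chromatin until it meets CTCF bound to its motif in a given orientation. WAPL releases cohesin from chromatin, and PDS5A and PDS5B bind the ring and take part both in its release and in halting it. Most loops seen by Hi-C have CTCF and cohesin at their anchors. A contact domain is a stretch whose sequences meet each other more often than they meet their neighbours, and compartments are the coarser division of a chromosome into regions that prefer their own kind.

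Some of these genes lay next to the ends of listed domains. At NIPBL, SMC3 and PDS5A, 3 of the 7 members of known strand, the end of a contact domain lay within 10 kb of the 5′ end. Of all points at 10 kb steps, 6.22% lay that close to one. In the score of the domain caller, these domains had 0.91 and 0.87 at NIPBL, 1.0 at PDS5A and 1.81 at SMC3, against a median of 1.2 over all domains. At STAG1 and NIPBL a loop anchor lay 10 kb from the 5′ end. The highest of the loop caller's false discovery rates was 0.058 for that STAG1 loop and 0.0008 for that NIPBL loop. The share of all points this close to an anchor was not computed. For these ends and anchors the RefSeq promoters of the 4 genes named are shown. That of PDS5B is a contrast, since it had no domain end or loop anchor near it. Each is the 250 bases before the annotated start, 5′ to 3′ on the gene's strand, in build GRCh38.p14, which is not the hg19 build of the map. The windows are NIPBL at chr5:36876519-36876768, plus strand, SMC3 at chr10:110567445-110567694, plus strand, PDS5A at chr4:39977912-39978161, minus strand, STAG1 at chr3:136752379-136752628, minus strand, and PDS5B at chr13:32586202-32586451, plus strand. Capitals mark matches, on either strand, to AGNGGGC, a short core of the CTCF motif, or to CCNNNAGNGGGC, a longer form that contains the short one.
NIPBL: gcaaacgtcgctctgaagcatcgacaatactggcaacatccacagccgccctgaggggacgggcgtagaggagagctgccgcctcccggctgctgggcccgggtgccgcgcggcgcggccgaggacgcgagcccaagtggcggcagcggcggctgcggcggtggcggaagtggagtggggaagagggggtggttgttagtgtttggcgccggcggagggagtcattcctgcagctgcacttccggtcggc
SMC3: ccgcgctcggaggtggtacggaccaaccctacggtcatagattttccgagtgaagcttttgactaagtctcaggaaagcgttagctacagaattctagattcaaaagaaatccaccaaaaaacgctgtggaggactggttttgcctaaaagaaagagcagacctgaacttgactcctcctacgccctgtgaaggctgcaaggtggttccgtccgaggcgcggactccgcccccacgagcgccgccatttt
PDS5A: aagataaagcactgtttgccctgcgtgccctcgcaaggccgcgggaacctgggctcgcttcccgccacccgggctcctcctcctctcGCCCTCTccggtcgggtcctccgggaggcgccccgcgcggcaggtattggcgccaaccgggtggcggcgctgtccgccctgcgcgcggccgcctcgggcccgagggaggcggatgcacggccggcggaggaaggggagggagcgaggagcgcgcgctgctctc
STAG1: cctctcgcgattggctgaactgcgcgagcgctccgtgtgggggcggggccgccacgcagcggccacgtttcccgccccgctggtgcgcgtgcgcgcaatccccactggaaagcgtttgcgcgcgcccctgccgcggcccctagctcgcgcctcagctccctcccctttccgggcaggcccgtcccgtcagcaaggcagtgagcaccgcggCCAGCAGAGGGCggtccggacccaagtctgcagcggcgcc
PDS5B: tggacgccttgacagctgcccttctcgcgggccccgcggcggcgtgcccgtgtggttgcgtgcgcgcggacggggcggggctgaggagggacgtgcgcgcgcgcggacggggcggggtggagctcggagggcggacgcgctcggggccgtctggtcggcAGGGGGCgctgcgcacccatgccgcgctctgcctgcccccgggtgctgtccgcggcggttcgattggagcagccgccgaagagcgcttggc

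RefSeq promoters were matched for 7 of the 8 members, all but RAD21. Of all 35116 RefSeq promoters of that length, 27.2% held the short core and 3.43% the longer form. STAG1 was the member with the longer form, read on the strand of the gene with its last base 29 bases before the start. PDS5B, PDS5A and WAPL each held 1 short match and CTCF 2, while NIPBL and SMC3 held neither form in these 250 bases. GC content was 70.0 to 78.0% in the promoters of 6 members and 52.8% in that of SMC3, against a median of 58.0% over all promoters. The shares of 27.2% and 3.43% were not matched for GC content, and both motif forms are rich in G and C. A match is a run of letters and not evidence of binding, and these files hold no CTCF binding data. The motif forms were chosen after the sequences had been read.

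**Figure D1:**
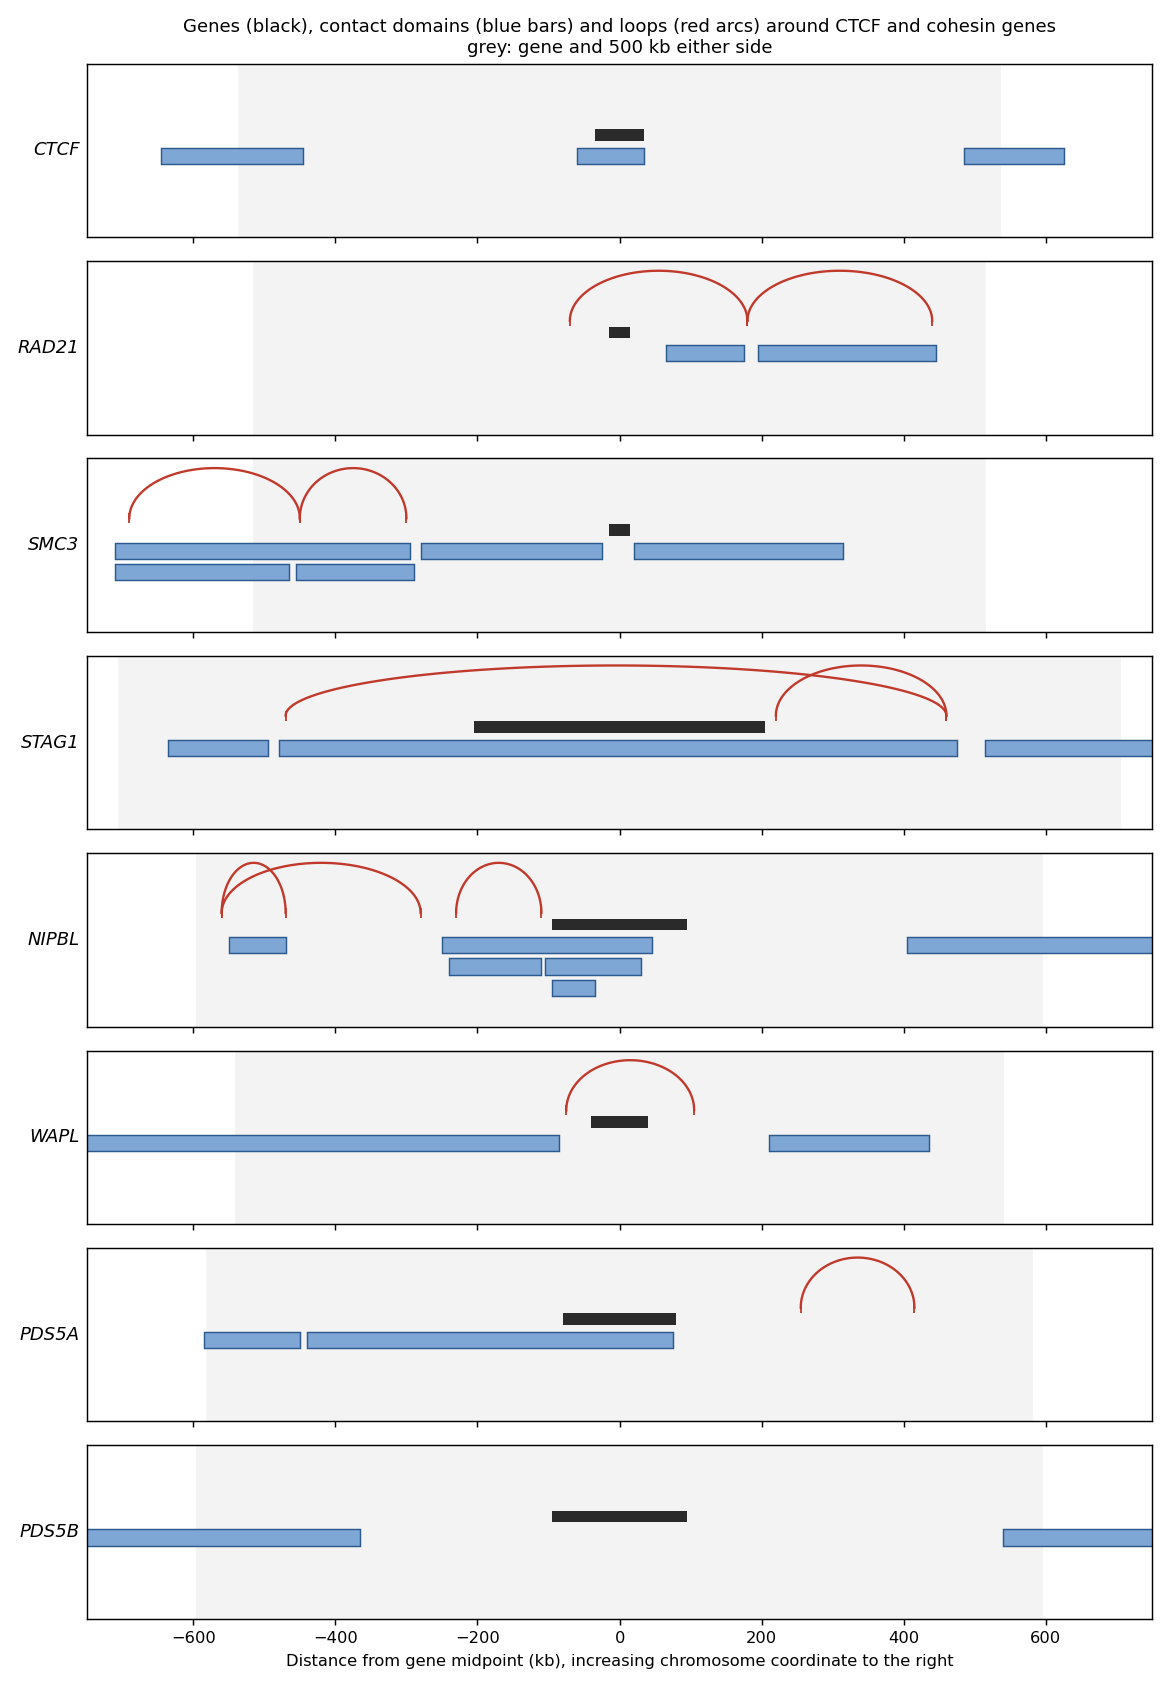
Listed contact domains (blue bars) and loops (red arcs between anchors) around each gene (black bar), plotted as distance in kb from the midpoint of the gene, with the gene and 500 kb either side in grey. STAG1 lies inside a 955 kb domain under a 930 kb loop, SMC3 in a 45 kb break between neighbouring domains, and PDS5B in a 905 kb stretch with neither domain nor loop.

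The listed features were set against every interval of the same length as each gene, placed at 10 kb steps along all scored bins, with the 8 lengths pooled. These placements are positions and not genes, so they describe the map and test nothing. A whole gene lay inside a listed domain for 2 of the 8 members, CTCF and STAG1, against 27.6% of placements. By the midpoint of the gene alone it was 4, with NIPBL and PDS5A added. A domain end lay inside the gene or within 50 kb of it for 6 of 8, all but STAG1 and PDS5B, against 39.0% of placements. Counting only domains scored above the median it was 2 of 8, SMC3 and NIPBL, against 23.0%. A loop anchor lay in the window for 6 of 8, all but CTCF and PDS5B, against 45.3%. The share differed between chromosomes: for placements on the member's own chromosome it was 63.9% for SMC3, 65.1% for WAPL, 54.4% for STAG1, 50% for NIPBL, 40.3% for RAD21, 39.9% for PDS5B, 37.7% for PDS5A and 26.1% for CTCF. The gene lay between the anchors of a loop of up to 2 Mb for 3 of 8, RAD21, STAG1 and WAPL, against 10.2%. On their own chromosomes the share was 14.0% for RAD21, 3.32% for STAG1 and 20.9% for WAPL, and with loops of all q-values under 0.01 the count was 1, STAG1. The holding domain had a loop at its corner, joining its ends, for 1 of 8, STAG1, against 5.82% of placements. Counted by domain, that is 1 of the 2 domains that held a member, against 24.9% of all 3845 domains. Among the 7 members whose strand the RefSeq table gives, a domain end lay within 10 kb of the 5′ end for 3, against 6.22% of all points on the same grid. That limit equals the 10 kb to which genes are placed, and no other was tried for this count. SMC3 lay exactly at 10 kb, and the next closest member was CTCF at 25 kb. No test was made of these counts against the shares, because genes are not spread over the map as placements are.

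CTCF, the zinc-finger protein that stops cohesin at loop anchors, had a small domain of its own and no loop. The gene lies on chromosome 16 from 67600001 to 67670000, plus strand. The domain that held it ran from 67575001 to 67670000, 95 kb in length, so that it began 25 kb before the 5′ end of the gene and stopped at its 3′ end. Only 6.55% of all domains were shorter. The caller's score, a number the authors' domain caller gives each domain, was 1.18, near the median of 1.2 over all domains. Because positions are given to 10 kb, whether the last few kilobases of CTCF lie in this domain is not settled: with the gene drawn 5 kb longer at each end it is no longer held whole. The flanks were sparse, with the nearest other domains 410 kb before and 450 kb after the gene, and domains covered 22.0% of the window. No loop anchor lay in the window. The nearest of any loop was 2480 kb away and the nearest of a loop up to 2 Mb was 9070 kb away. Over all chromosomes 43.9% of placements of this length had an anchor in the window, against the 26.1% on chromosome 16.

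SMC3, one of the coiled-coil arms of the ring, sat between domains. The gene lies on chromosome 10 from 112330001 to 112360000, plus strand. The domain before it, from 112065001 to 112320000 and 255 kb in length, ended 10 kb short of the 5′ end. The domain after it, from 112365001 to 112660000 and 295 kb in length, began 5 kb past the 3′ end. The whole gene thus fell in a break of 45 kb, and 33.4% of the 3499 such breaks in the map were shorter. The upstream neighbour scored 1.81, above 99.5% of all domains, and the downstream one 1.22. No other member's window held a domain scored as high. With 5 listed domains the window was 75.2% covered. Its loops lay away from the gene: one joined 111650001 to 111660000 with 111890001 to 111900000 on 107 contacts, and another joined that same second anchor with 112040001 to 112050000 on 124 contacts. The nearest anchor was 280 kb from the 5′ end, and neither of the domains beside the gene had a loop at its corner.

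RAD21, the subunit that closes the ring and is cut to open it, lay under a loop but in no listed domain. The gene lies on chromosome 8 from 117860001 to 117890000. A loop of 250 kb joined 117800001 to 117810000 with 118050001 to 118060000 over the gene, on 98 contacts against 41.7 expected from the donut-shaped neighbourhood of the pixel. Its second anchor was also the first anchor of a 260 kb loop that reached to 118310001 to 118320000 on 113 contacts. The shared anchor lay in the gap between the domains from 117940001 to 118050000 and from 118070001 to 118320000. The nearer of these domains began 50 kb past the gene, which is the limit of the 50 kb rule. On the other side no domain was listed from 114450001 onward, a stretch of 3490 kb that ends at that nearer domain, and 97.2% of such stretches in the map were shorter. RAD21 thus stood just outside the first domain after a long stretch with none listed, yet inside a listed loop.

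STAG1, an alternative partner of the ring that contacts CTCF, was the member held most fully. It is also the longest, on chromosome 3 from 136060001 to 136470000, minus strand. The domain from 135785001 to 136740000, 955 kb in length with a score of 1.39, reached 275 kb past the 3′ end and 270 kb past the 5′ end. Of all domains, 95.7% were shorter. Of placements of this length, 10.1% were held whole and 1.42% were held by a domain with a corner loop. The corner loop joined 135790001 to 135800000 with 136720001 to 136730000, a span of 930 kb, on 61 contacts against 18.2 expected. A second loop of 240 kb shared the anchor at 136720001 to 136730000 and joined it to 136480001 to 136490000, which begins 10 kb beyond the 5′ end of STAG1, on 66 contacts against 25.7 expected. The anchor nearest to the 5′ end was thus paired with the far edge of the domain in the direction away from the gene body. The promoter of STAG1 printed above is the one with the longer motif form. By these positions the anchor begins 10 kb beyond the 5′ end, so the 250 bases of the promoter lie short of it. That distance is no larger than the 10 kb to which genes are placed, and the promoter is in another build. Domains covered 91.1% of the window, the most of the 8.

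**Figure D2:**
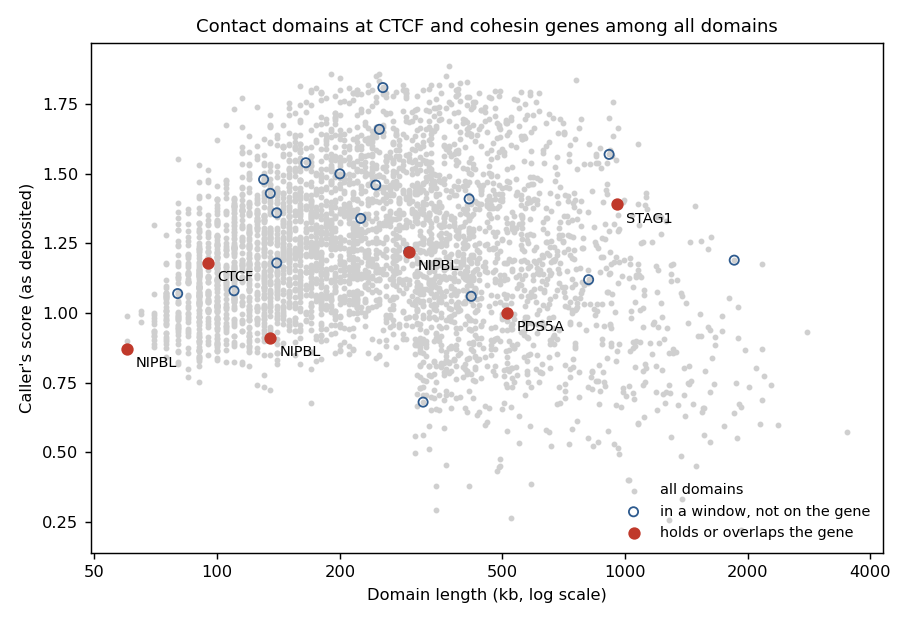
Length in kb (log scale) against the caller's score for all 3845 domains (grey), those in a member's window (open blue) and those that hold or overlap a member (red, named). The CTCF domain of 95 kb is among the shorter ones and the STAG1 domain of 955 kb among the longer. The PDS5A domain, the smaller NIPBL domains and, at 1.18, the CTCF domain score below the median of 1.2.

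NIPBL, which loads cohesin and drives its ATPase, began at a domain border and ran out of the domain before its 3′ end. The gene lies on chromosome 5 from 36880001 to 37070000, plus strand. A 295 kb domain from 36725001 to 37020000 covered 73.7% of it and held 3 smaller domains. One of these, from 36735001 to 36865000, ended 15 kb before the gene. Another, from 36870001 to 37005000, began 10 kb before the gene and covered 65.8% of it. The smallest, from 36880001 to 36940000, began at the 5′ end and was 60 kb long, the shortest length listed in the map. The border between the smaller domains therefore lay next to the 5′ end of NIPBL, while the 3′ end lay 50 kb past the last listed domain end. The caller scores were 1.48 for the domain before the gene, 1.22 for the large one, 0.91 and 0.87 for the domains on the gene. At the corner of the domain before the gene a loop of 120 kb joined 36740001 to 36750000 with 36860001 to 36870000, on 127 contacts against 58.0 expected. Its second anchor ended 10 kb before NIPBL. None of the 3 domains on the gene had a corner loop. The other loops of the window, of 90 and 280 kb, shared an anchor at 36410001 to 36420000, 460 kb before the gene, and had 152 and 117 contacts.

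WAPL, which releases the ring from chromatin, had a loop around it and lay between domains of very unequal size. The gene lies on chromosome 10 from 88200001 to 88280000, minus strand. A loop of 180 kb joined 88160001 to 88170000 with 88340001 to 88350000, so that its anchors stood 30 kb beyond the 3′ end and 60 kb beyond the 5′ end. It had 79 contacts against 37.5 expected. The domain that ended 45 kb from the gene, from 86300001 to 88155000, was 1855 kb long and longer than 99.5% of all domains. The next domain began 170 kb past the gene at 88450001 and was 225 kb long. The loop therefore stood within a 295 kb stretch with no listed domain, and 70.1% of such stretches were shorter.

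The paralogues PDS5A and PDS5B, which bind the ring and regulate its stay on chromatin, were placed differently. PDS5A lies on chromosome 4 from 39820001 to 39980000, minus strand. A domain of 515 kb from 39460001 to 39975000 covered 96.9% of it and ended 5 kb inside the interval at the 5′ end, closer than the 10 kb to which the gene is placed. The score of that domain was 1.0, and 20.6% of all domains scored lower. Past the 5′ end no domain was listed in the window, but a loop of 160 kb joined 40150001 to 40160000 with 40310001 to 40320000 on 72 contacts, 170 kb from the gene. PDS5B lies on chromosome 13 from 33160001 to 33350000, plus strand, in the middle of a stretch without features. The domain before it ended 270 kb away at 32890000, the one after it began 445 kb away at 33795001, and the nearest loop anchor was 840 kb away. That stretch of 905 kb was longer than 87.7% of those in the map, and the domain after it scored 0.68, higher than only 2.18% of domains. On chromosome 13, 46.6% of placements of this length had a domain end within 50 kb. These tables list calls only, so an empty stretch cannot be separated from one whose contacts fell below a caller's threshold.

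Compartment scores placed 3 of the 5 members that could be read in bins of positive sign, against 46.0% of the 556 scored bins on their chromosomes. The scores come in bins of 1 Mb and are scaled within each chromosome, and what the submitters meant by its sign is not stated in the sources used here. Domains were denser in positive bins on all 4 chromosomes, with 1.12 against 0.854 per Mb on chromosome 16, 2.0 against 0.881 on chromosome 8, 1.63 against 0.673 on chromosome 3 and 2.48 against 1.21 on chromosome 10. NIPBL, PDS5A and PDS5B, on chromosomes 5, 4 and 13, were left out by the rule that defines the members.

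CTCF stood near the top of its chromosome. Its bin, 67 to 68 Mb of chromosome 16, scored 0.1511, rank 2 from the highest of 81 bins, and the next bin at 0.156 was rank 1. The bin before it scored -0.0747, so that the sign switched at the lower edge of the bin that holds CTCF. WAPL stood at a switch as well, with 0.0717 in its bin at 88 to 89 Mb of chromosome 10 and -0.0558 in the bin before. The 1855 kb domain next to WAPL reached into both of these bins. On the same chromosome SMC3 scored -0.0135, rank 80 of 134 against rank 46 for WAPL, but its bin stood above both neighbours, at -0.1015 and -0.1183. RAD21 scored -0.0099, rank 63 of 145, also above its neighbours at -0.0336 and -0.0238. STAG1 scored 0.023, rank 77 of 196, between 0.0285 and -0.0266. The bins of RAD21, SMC3 and WAPL were thus local peaks, 3 of 5, against 23.3% of the bins on these chromosomes that had scored neighbours. That comparison was chosen after the values were seen.

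**Figure D3:**
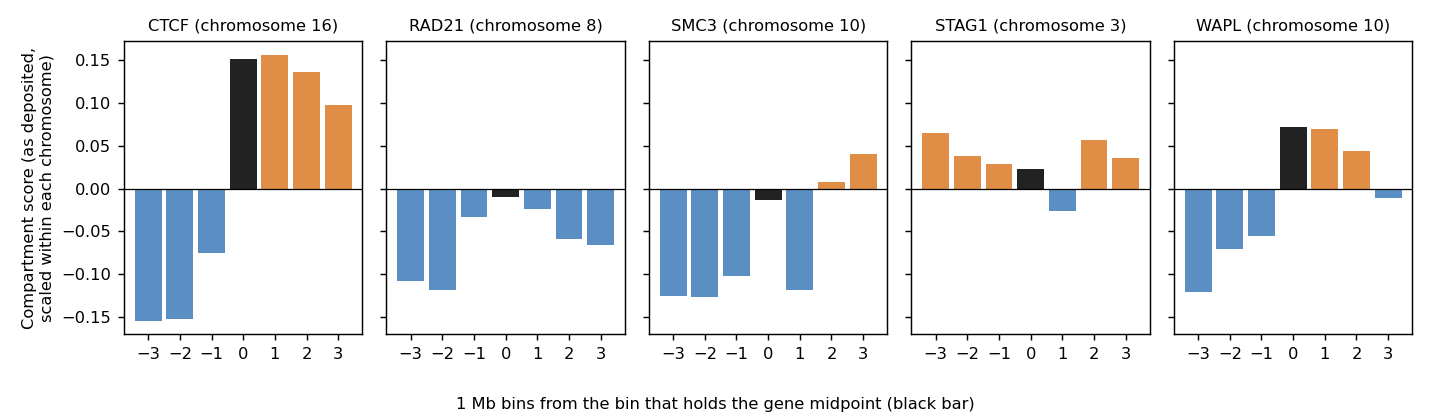
Deposited compartment score of the 1 Mb bin that holds the midpoint of each gene (black) and of the 3 bins either side (orange above 0, blue below), scaled within each chromosome, so that heights compare only within a panel or between SMC3 and WAPL. CTCF and WAPL sit in the first positive bin after a run of negative ones, and SMC3 and RAD21 in bins close to 0 that stand above both neighbours.

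The 11 loops with an anchor in a window, all with 10 kb anchors, had somewhat more contacts and somewhat lower enrichment than the median loop of that anchor size. The pixel of each loop held 61 to 152 observed contacts (median 107), against a median of 82 over the 1222 loops of up to 2 Mb with 10 kb anchors. A 5 kb pixel covers less sequence, so loops called at that size were left out of these medians. The 11 loops spanned from 90 to 930 kb with a median of 240 kb, against 270 kb. Enrichment, the observed count over the donut expectation, ranged from 2.11 to 3.35 with a median of 2.38, against 2.6. The strongest was the STAG1 corner loop at 3.35 (95% Poisson interval 2.56 to 4.3), above 91.0% of loops with 10 kb anchors. The weakest was the loop around WAPL at 2.11 (1.67 to 2.63), above 6.06% of them. The loop over RAD21 had 2.35 (1.91 to 2.87), the STAG1 loop at the 5′ end 2.57 (1.98 to 3.26), and the loop ending before NIPBL 2.19 (1.82 to 2.6). The 280 kb NIPBL loop had 3.05 (2.52 to 3.65). The 90 kb NIPBL loop had 2.12 (1.8 to 2.49), an interval below those of the 930 kb STAG1 and 280 kb NIPBL loops, while the interval of the WAPL loop overlapped every other. Intervals cover counting error only and hold the expectation fixed.

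The listed loops differed in how firmly they passed. Each loop has a q-value, the caller's false discovery rate, against each of 4 neighbourhoods, and the highest of them was above 0.05 for 3 of the 11 loops, against 6.49% of all loops of up to 2 Mb. These were the STAG1 loop at the 5′ end (0.058), the WAPL loop (0.059) and the second RAD21 loop (0.077). The loop over RAD21 had 0.02. The STAG1 corner loop had 9.6e-06, and 7 of the 11 were under 0.01. So of the loops of up to 2 Mb that reached over a member, the one at STAG1 was listed firmly, and those at RAD21 and WAPL less so. Sharing of anchors was frequent, in that 8 of the 11 loops, a pair each at RAD21, SMC3, STAG1 and NIPBL, shared an anchor with another loop, against 22.8% of all loops of up to 2 Mb. Loops that share an anchor are not separate observations. At a domain corner lay 6 of the 11, against 67.2% of all loops of up to 2 Mb. The 3 shares of loops given here are over all 1432 loops of up to 2 Mb, not only the 1222 with 10 kb anchors.

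**Figure D4:**
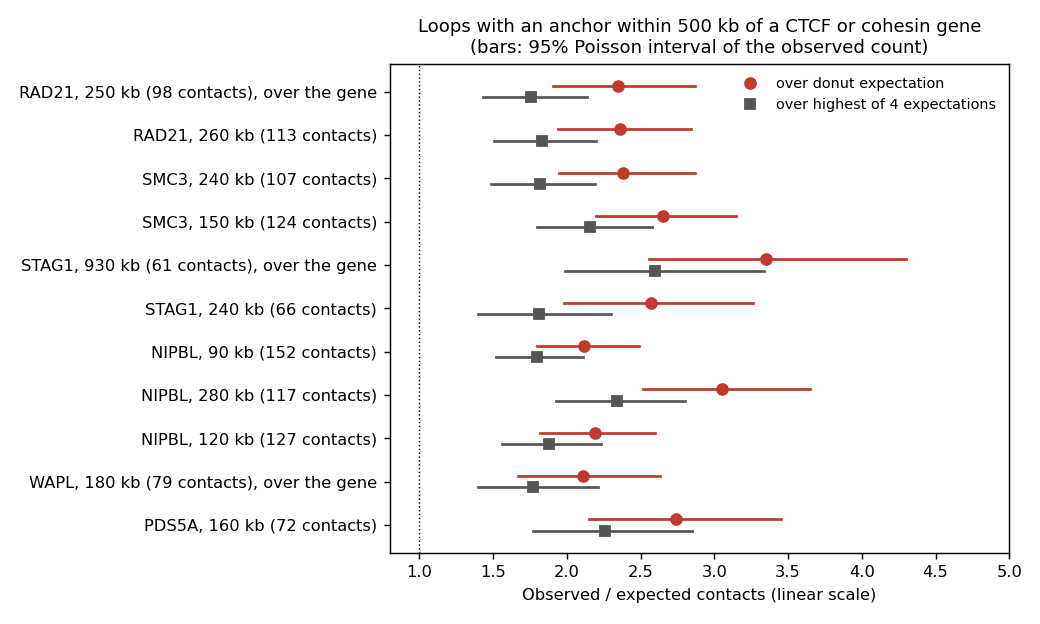
Observed over expected contacts for each of the 11 loops, over the donut expectation (red circles) and over the highest of the 4 local expectations (grey squares), on a linear axis with 95% Poisson intervals of the observed count. Values over the donut lie between 2.11 and 3.35 and those over the highest expectation between 1.76 and 2.6, with the STAG1 loop of 930 kb the highest on both.

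Over all 8 windows, 25 domains were listed at least in part, 60 to 1855 kb in length with a median of 245 kb, against 235 kb for all domains. Their caller scores ran from 0.68 to 1.81 with a median of 1.22, against 1.2. Domains with their midpoint in a window numbered 18, or 1.97 per Mb, against 1.33 per Mb of the scored genome. A corner loop was listed for 6 of the 25, against 24.9% of all domains. The windows of NIPBL, with its nested domains, and SMC3 held 9 of those 18. These were the densest windows, at 4.2 and 3.88 per Mb. The other 6 windows held 9 in 6.94 Mb, or 1.3 per Mb when pooled. Of these, RAD21 had 1.94 per Mb, PDS5A 1.72 and STAG1 1.42, all above 1.33. CTCF, WAPL and PDS5B, with 1 domain each, had 0.935, 0.926 and 0.84. The pooled value over all 8 windows thus owed most to NIPBL and SMC3.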

How the data were processed

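The submitters' processing notes name build hg19 and, with no roles, Picard, BWA 0.7.8 and FastQC 0.11.7. All 3 deposited tables hold 1 value for both libraries, and total depth is unknown here. The authors' compartment score is 1 value per 1 Mb bin, and the authors' domain score is that of a caller not given in the sources used here, on 5 kb bins. The name of the loop table gives HiCCUPS as its caller, run at 5 and 10 kb with the calls merged. Loops carry, per the file headers, the count of observed contacts, the contacts expected from 4 neighbourhoods and q-values, of which the highest deposited was 0.0999.

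Gene intervals came from the rule that defines the members, and strands from RefSeq promoters. The members were set by name and position. Earlier results of these data were nonetheless known when the members, lists and rules were chosen. All 8 members are named, with the bins, domains and loops nearest to them, and other cohesin genes were not placed. An anchor counted when it overlapped a window. A corner loop had each anchor near one end of a domain, by a tolerance of 50 kb or, if that is more, 0.2 of the domain's length. Intervals are exact Poisson, computed with scipy 1.17.1 in Python 3.11.15. The placement rules were tested on simulated domains. No test between groups was possible with 1 group. Alternatives covered window, tolerance, overlap and q-value.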

Additional observations from a re-analysis of the deposited data

How the results depend on the processing

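Of 24 alternatives to the 7 counts of members or loops, 16 stayed within 1.5 times the value given. Members held whole numbered 4 by the gene midpoint or by at least 50% of the gene, adding NIPBL and PDS5A, and 1, STAG1, with domains scoring above the median or with genes 5 kb longer at each end (chosen after seeing the data). Members with a domain end within 50 kb numbered 2 among domains scoring above the median, SMC3 and NIPBL, and 4 within 25 kb or, added later because RAD21 lies at 50 kb, within 40 kb (CTCF, SMC3, NIPBL and PDS5A in both). The 11 loops became 7 with 250 kb either side and 7 with all q-values under 0.01, where the members between anchors numbered 1, STAG1. Over the highest of the 4 expectations, 5 of 11 enrichments stayed within their Poisson interval and 6 were lower, down to 1.76. No paired analysis was possible because no table has a column per library, and for the same reason no replicate could be left out. The number of contacts per loop pixel is the only depth known, so an unlisted loop or domain may lie below the caller's reach.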

Other observations

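Beyond the windows, the map listed long loops over SMC3 and WAPL whose anchors lay far from either gene. The one over SMC3 joined 110910001 to 110920000 with 113650001 to 113660000 of chromosome 10, 2.74 Mb apart. It had 13 contacts against 1.75 expected (7.43-fold, 95% Poisson interval 3.96 to 12.7), with a highest q-value of 0.005. No loop of up to 2 Mb had fewer contacts. The one over WAPL joined 46950001 to 46960000 with 88960001 to 88970000 of the same chromosome, 42.0 Mb apart, with a highest q-value of 7.7e-11. It had 20 contacts against 0.408 expected (49.0-fold, 29.9 to 75.7, and 27.7-fold over the highest of the 4 expectations). Those 4 expectations ran from only 0.249 to 0.723 contacts, and the interval holds the expectation fixed. Their contact counts lie below those of all 11 loops near the members, which had 61 or more.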
